A study of Mus musculus with 12 samples.

Results

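Fatty acid uptake, lipolysis and oxidation genes were followed in C2C12 myotubes given a cachexia-related cytokine or medium from tumour cells. The group was chosen by name and consists of Cd36, Lpl, Fabp3, Fabp4, Fabp5, Mgll, Pnpla2, Angptl4, Cpt1b and Pdk4. Of these 10 genes, 9 have a row among the 21187 genes of the deposited table, and Fabp3 was not analysed here. C2C12 is a mouse myoblast line, and its cells fuse in culture into multinucleated myotubes, here over 3 days of differentiation. In the first experiment myotubes were untreated or received the mouse cytokine LIF (leukemia inhibitory factor), a relative of interleukin-6, at 10 ng/ml. In the second they were untreated or received conditioned medium (CM) of C26, a mouse colon carcinoma line used to model cancer cachexia, as 1 part in 3. Each experiment had its own untreated myotubes, and both arms were taken at 4, 8 and 24 h. RNA pooled from 3 wells was run on 1 Affymetrix mouse gene 1.0 ST array per arm and time, 12 arrays in all, so a difference at a single time has no replicate check. The cells are a single line grown without fat, vessels or nerve, and pooling hides how wells differ.

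Muscle cells take fatty acids from the circulation after lipoprotein lipase (Lpl) has released them from lipoprotein triglyceride, and the membrane protein Cd36 helps them enter. Inside the cell, fatty acid binding proteins carry them, and those stored as triglyceride in lipid droplets are released again step by step by lipases, with Pnpla2 (ATGL) acting first and Mgll last. Entry into mitochondria for oxidation passes through carnitine palmitoyltransferase, of which Cpt1b is the muscle form, while Pdk4 inhibits pyruvate dehydrogenase and so spares glucose when fat is burned. Angptl4 is a secreted inhibitor of lipoprotein lipase, and several of these genes are classical targets of the fatty acid sensing PPAR receptors.

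Values are the authors' log2 expression levels, 1 per gene, so a difference of 1 is 2-fold. The arrays at 24 h had a lower overall level than those at 4 and 8 h (array medians of 5.5 against 6 in the LIF experiment, and of 6.14 against 6.71 to 6.74 in the CM experiment). Levels are therefore compared within a time, and across times only after subtracting the array's median. The background range of an array was read from 1284 receptor genes of smell and pheromone sensing, most of which are silent outside sensory tissue: it ends where 5% of them lie higher, between 4.5 and 5.15 in log2 level. All 12 muscle markers, among them Myog, Ckm and Acta1, lay above it in every array, as the label of the cells requires. The adipocyte markers Adipoq, Lep and Adrb3, the leukocyte markers Ptprc, Adgre1, Csf1r, Itgam and Cd52, and the endothelial markers Pecam1, Kdr and Emcn lay within it in every array. Other markers of these types did not: 5 to 7 of 10 adipocyte, 2 to 4 of 10 leukocyte and 3 to 6 of 10 endothelial markers lay above background in an array, as did 5 to 6 of 10 markers of colon carcinoma epithelium. Plin1, Cidec, Cfd, Pparg and Lipe of the adipocyte list, Cd68 and Cd14 of the leukocyte list and Cldn5 and Egfl7 of the endothelial list were above it in every array. Adjusted p values come from limma over all genes, with a threshold of 0.05. For responses averaged over 4, 8 and 24 h the times stand in for repeats, although times are not replicates. Those p values set a mean change against its spread from time to time. That spread is 1 estimate per gene, shared by both experiments and drawn towards that of other genes. The SE of a gene is therefore the same for both agents, and a p value for 1 agent also carries the spread of the other.

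Over the fatty acid genes, Mgll was lower and Angptl4 higher in treated than in untreated myotubes by 24 h, with both agents and by more than at 4 h. Cd36 and Cpt1b were slightly lower with LIF, Lpl was slightly higher with CM, and Pnpla2 hardly differed, none of which passed a test. In limma none of the 9 measured genes passed the threshold for a response averaged over the times to LIF (0% of all genes called) or to CM (46 genes called, 0.217% of all genes). At an unadjusted limma p under 0.05 there were 3 members for LIF and 4 for CM, beside 6.82% and 7.48% of all genes. The 4 for CM include Fabp5, which lay in the background range in every array. For the response at 24 h minus that at 4 h, 2 of the 9 passed, beside 0.401% of all genes, and 3 had an unadjusted p under 0.05, beside 7.44%.

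**Figure D1:**
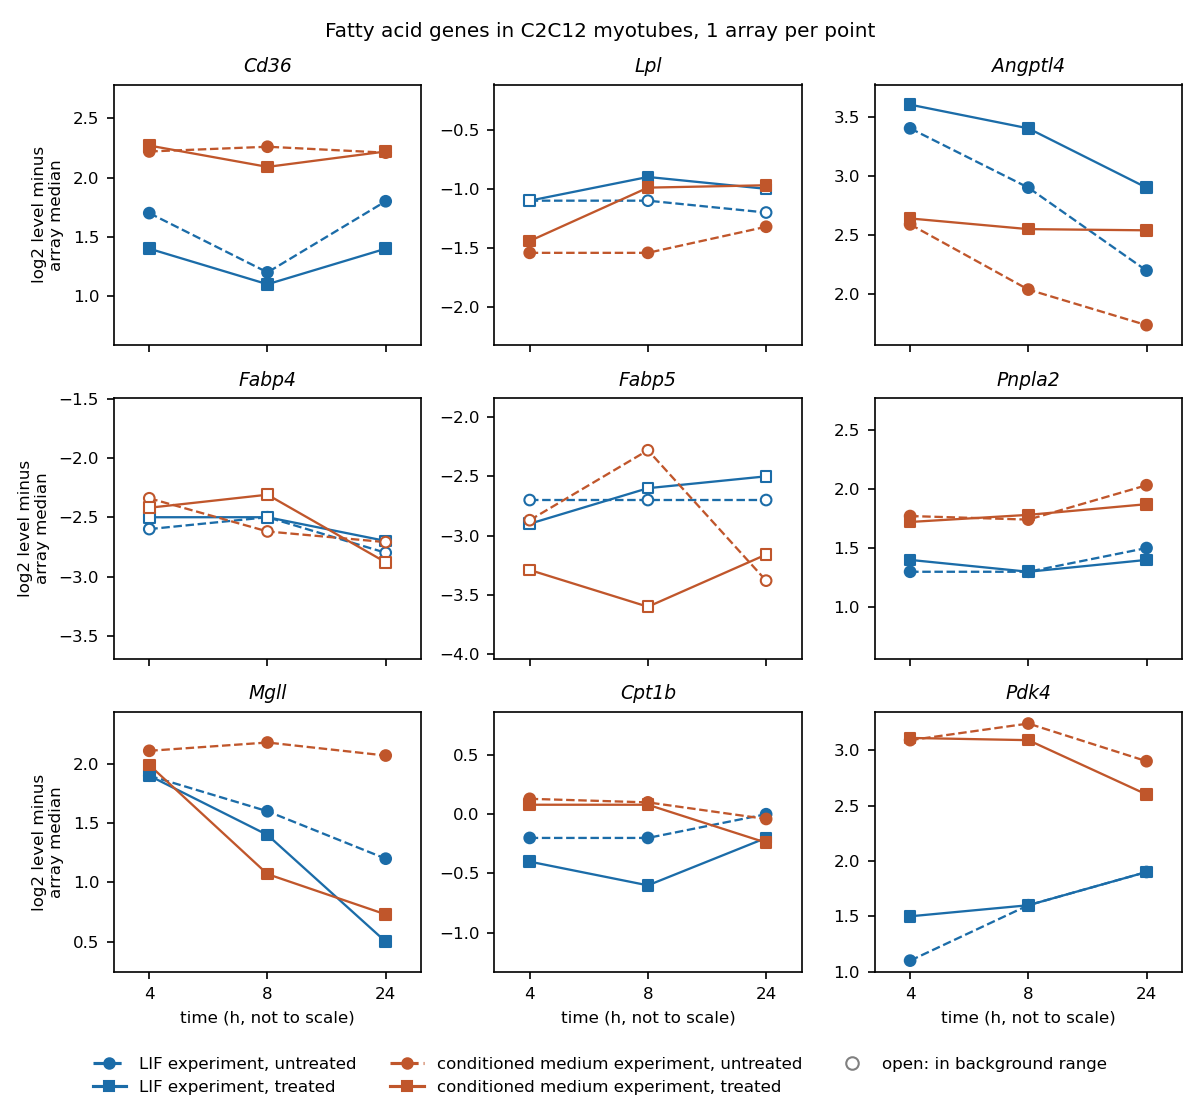
Log2 level minus the array's median (y axis) at 4, 8 and 24 h (x axis, not to scale) for each measured gene, with 1 array per point, dashed lines and circles for untreated and solid lines and squares for treated myotubes, and open symbols for values in the background range. Treated and untreated points of Mgll and Angptl4 lie close at 4 h and apart at 24 h in both experiments, and all points of Fabp4 and Fabp5 are open.

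Among the genes of uptake, Cd36, the membrane transporter of long-chain fatty acids, had log2 levels of 7.7, 7.2 and 7.3 in untreated and 7.4, 7.1 and 6.9 in LIF-treated myotubes at 4, 8 and 24 h. In the CM experiment it stood at 8.93, 9.0 and 8.35 in untreated and 8.99, 8.82 and 8.36 in treated myotubes. Cd36 was thus lower with LIF at each time, by 0.3, 0.1 and 0.4, and on both sides of the untreated level with CM. The averaged LIF response of Cd36 was -0.27 ± 0.07 (SE) with a limma adjusted p of 0.398, and that to CM was -0.04 ± 0.07 with an adjusted p of 0.969. The difference between the agents was 0.23, with a 95% interval before any adjustment of 0.01 to 0.45 and an adjusted p of 0.967. The interval lies just above 0, but the difference did not pass the threshold over all genes.

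Lpl, the lipase that frees fatty acids from lipoproteins, had untreated levels of 4.9, 4.9 and 4.3 and LIF-treated levels of 4.9, 5.1 and 4.5. In the LIF experiment 2 of 3 untreated and 2 of 3 treated arrays held Lpl in the background range, which leaves the size of its LIF response uncertain. In the CM experiment all 6 values lay above that range, with untreated levels of 5.17, 5.20 and 4.82 and treated levels of 5.28, 5.74 and 5.17. Lpl was higher with CM at each time, most at 8 h, where the difference of 0.54 was matched or passed by 0.901% of all genes. Its averaged CM response of 0.33 ± 0.10 (SE) had a limma adjusted p of 0.304.

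Angptl4, whose product inhibits lipoprotein lipase, had untreated levels of 9.4, 8.9 and 7.7 and LIF-treated levels of 9.6, 9.4 and 8.4 at 4, 8 and 24 h. In the CM experiment the untreated levels of Angptl4 were 9.30, 8.78 and 7.88 and the treated levels 9.36, 9.28 and 8.68. The treated array was the higher at every time in both experiments, and the gap widened with time. The differences were 0.2, 0.5 and 0.7 for LIF and 0.06, 0.50 and 0.80 for CM, or 1.62-fold and 1.74-fold at 24 h. Of all genes, 0.444% were as high or higher with LIF at 24 h, and 0.477% with CM. The averaged responses of Angptl4 to the agents were close in size, 0.47 ± 0.12 (SE) for LIF and 0.45 ± 0.12 for CM, and neither passed in limma (adjusted p of 0.402 and 0.271). Their difference was -0.01, with an unadjusted 95% interval of -0.41 to 0.38, so the agents may still differ by up to about that much. The sign of this small difference turned under several of the alternative settings.

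Relative to the array median, untreated Angptl4 stood at 3.4, 2.9 and 2.2 in the LIF experiment and at 2.59, 2.04 and 1.74 in the CM experiment. In LIF-treated myotubes the corresponding levels were 3.6, 3.4 and 2.9, and in CM-treated myotubes 2.64, 2.55 and 2.54. From 4 to 24 h the untreated Angptl4 level thus differed by -1.2 and -0.85, and the treated level by -0.7 with LIF and -0.10 with CM. Between untreated arrays at 4 and 8 h, which share a scale, Angptl4 differed by -0.5 and -0.52. A difference of at least 2-fold between the same arrays, which Angptl4 did not reach, was seen for 0.132% of all genes in the LIF experiment and 0.0236% in the CM experiment. The gap between the arms thus widened while the untreated level of Angptl4 became lower, each value resting on a single array.

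The fatty acid binding proteins Fabp4, typical of adipocytes, and Fabp5, found in many cell types, lay in the background range in all 12 arrays. Fabp4 ran from 2.7 to 3.5 in the LIF experiment and from 3.26 to 4.42 in the CM experiment. Fabp5 had CM-experiment levels of 3.84, 4.46 and 2.76 in untreated and 3.43, 3.13 and 2.98 in treated myotubes. The difference of -1.33 at 8 h, more than 2-fold, rests on the untreated array, whose 4.46 was the highest Fabp5 value and still within the background range. These values bear no reading of a level or a change, and the fit's value is given for completeness: the averaged CM response of Fabp5 was -0.51 ± 0.22 (SE) with a limma adjusted p of 0.646.

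Among the lipases, Pnpla2, which takes the first fatty acid from stored triglyceride, had levels of 7.3, 7.3 and 7.0 in untreated and 7.4, 7.3 and 6.9 in LIF-treated myotubes. With CM they were 8.48, 8.48 and 8.17 untreated and 8.44, 8.51 and 8.01 treated. Pnpla2 was the steadiest of the genes, with differences between -0.16 and 0.1. Its averaged responses were 0 ± 0.06 (SE) for LIF and -0.06 ± 0.06 for CM, with limma adjusted p of 1 and 0.928.

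Mgll, monoglyceride lipase, splits the last fatty acid from glycerol and also degrades the endocannabinoid 2-arachidonoylglycerol. Its untreated levels were 7.9, 7.6 and 6.7 and its LIF-treated levels 7.9, 7.4 and 6.0 at 4, 8 and 24 h. In the CM experiment Mgll stood at 8.82, 8.92 and 8.21 in untreated and at 8.71, 7.80 and 6.87 in treated myotubes. The arms were level or nearly so at 4 h, and the treated array was lower at 8 and 24 h with both agents. The differences were 0.0, -0.2 and -0.7 for LIF and -0.11, -1.12 and -1.34 for CM. In fold terms Mgll was 1.62-fold lower with LIF at 24 h, and 2.17-fold and 2.53-fold lower with CM at 8 and 24 h. Only 5 genes lay lower than Mgll with CM at 8 h and 10 at 24 h, and 0.288% of all genes were as low or lower with LIF at 24 h. Relative to the array median, untreated Mgll stood at 1.9, 1.6 and 1.2 in the LIF experiment and at 2.11, 2.18 and 2.07 in the CM experiment. From 4 to 24 h untreated Mgll thus differed by -0.7 and -0.04, and treated Mgll by -1.4 with LIF and -1.26 with CM. In the LIF experiment the untreated level itself became lower.

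With CM, 2 of the 9 genes had a difference of at least 2-fold downwards at 8 h, beside 0.0378% of all genes. Of these, Mgll lay above background and Fabp5 within it, so the count rests on Mgll alone. At 24 h Mgll alone among the 9 was that far lower with CM, beside 0.156% of all genes. With LIF no member differed by 2-fold at any time, beside 0.0614%, 0.0472% and 0.142% of all genes at 4, 8 and 24 h, and with CM none did at 4 h, beside 0.0755%. Mgll's averaged CM response was -0.86 ± 0.20 (SE), with an unadjusted 95% interval of -1.31 to -0.40 and a limma adjusted p of 0.182. The averaged LIF response was -0.30 ± 0.20 with an adjusted p of 0.854. CM minus LIF was -0.56, with an unadjusted 95% interval of -1.2 to 0.08 and an adjusted p of 0.967, so a larger response to CM was not shown. Of the 9 genes none passed in limma for CM minus LIF (0% of all genes called), and 2 had an unadjusted p under 0.05, beside 4.48% of all genes.

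**Figure D2:**
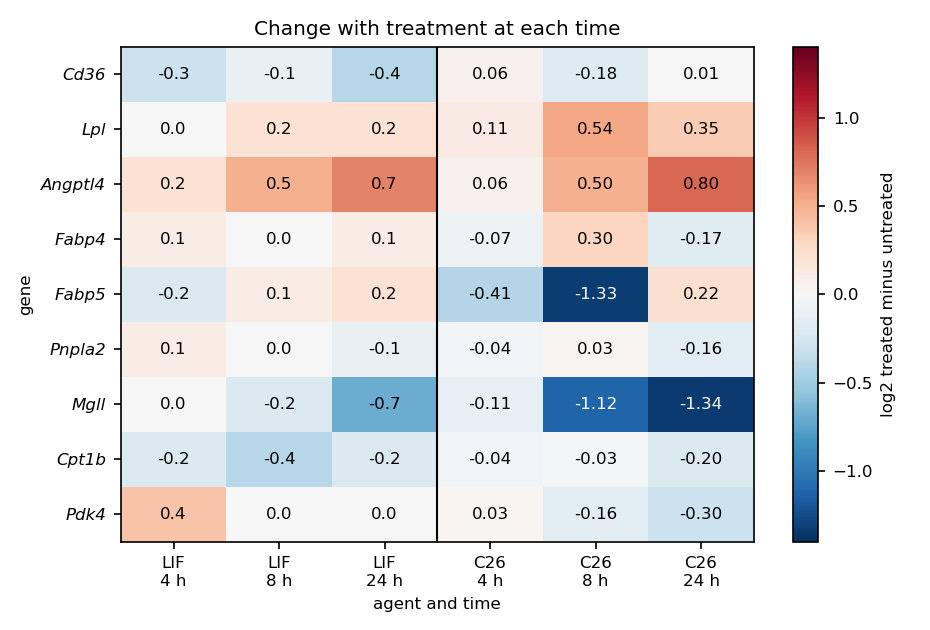
Log2 treated minus untreated level for each measured gene (rows) at each agent and time (columns, C26 standing for the conditioned medium), with red for higher and blue for lower in treated myotubes and 1 array per arm. Mgll at 8 and 24 h of conditioned medium and Fabp5 at 8 h are the cells past 2-fold, and Angptl4 is above 0 in all 6 columns.

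Whether the response itself differed between 24 and 4 h was tested in a fit in which both agents share the time effect and stand in for repeats. The 24 h arrays had a lower overall level in both experiments. The authors' LIF fold changes at 24 h also carry a later date than those at 4 and 8 h. A difference of time and one of a separate handling of the 24 h arrays cannot be told apart here. The response of Mgll was lower at 24 h by 0.7 with LIF and by 1.23 with CM. Their mean was -0.965 ± 0.16 (SE), with an unadjusted 95% interval of -1.32 to -0.61 and a limma adjusted p of 0.0316. The response of Angptl4 was higher at 24 h by 0.5 with LIF and by 0.74 with CM, a mean of 0.62 ± 0.09 (SE), with an interval of 0.41 to 0.83 and an adjusted p of 0.0181. These were the 2 of 9 members past the threshold. At 24 h the treated minus untreated difference was more negative for Mgll and more positive for Angptl4. Relative to the array median, untreated Angptl4 differed from 4 to 24 h by -1.2 in the LIF and -0.85 in the CM experiment. Treated Angptl4 differed by -0.7 with LIF and by only -0.10 with CM. Over all genes, 60 (0.283%) were called lower, Mgll included, and 25 (0.118%) higher, Angptl4 included. Both calls were lost without a variance trend (adjusted p of 0.363 for Mgll and 0.332 for Angptl4), with quantile normalization (0.0744 and 0.0684), with the CM values rounded to 1 decimal (0.659 for both) and, an alternative chosen after seeing the data, without the 8 h arrays (0.166 and 0.200). Over all alternatives the adjusted p ran from 0.0135 to 0.659 for Mgll and from 0.00741 to 0.659 for Angptl4, while the differences stayed between -0.965 and -0.95 and between 0.60 and 0.65.

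Some markers of unfused and fibroblast-like cells were called in the same comparison. Of 10 such markers, 3 were called higher (Col3a1 by 0.475, Dcn by 0.91 and Ly6a by 0.79, with limma adjusted p of 0.0269, 0.00751 and 0.000770) and 1 was called lower (the proliferation marker Mki67, by -0.645, adjusted p of 0.00856). The other markers were not called, among them Pdgfra (0.07), Col1a1 (-0.105) and Col1a2 (-0.055). Over the whole list 7 markers lay above 0 and 3 below. Of the 10 markers, 9 to 10 lay above background in each array. Their summed log2 level over the array median ran from 6.56 to 6.77 in untreated and from 6.73 to 6.88 in treated arrays of the LIF experiment, and from 6.66 to 6.83 and from 6.73 to 7.29 in the CM experiment. Of the 12 muscle markers none was called in limma, and 1 had an unadjusted p under 0.05. The part of a changed cell makeup in the Mgll and Angptl4 results was not tested, and in pooled RNA fewer cells of a type and less RNA per cell cannot be told apart.

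**Figure D3:**
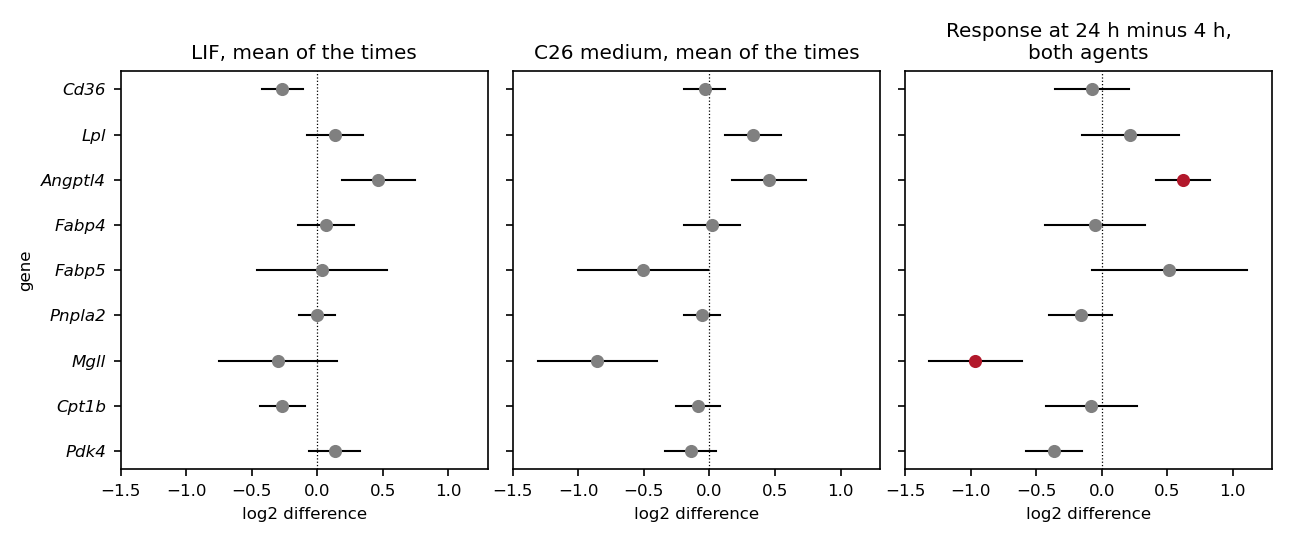
Log2 difference (x axis) with its unadjusted 95% interval for each measured gene in 3 comparisons of the limma fits, red where the adjusted p is under 0.05. The first 2 panels average the response over 4, 8 and 24 h, and the last gives the response at 24 h minus that at 4 h over both agents, where Mgll (-0.965) and Angptl4 (0.62) are red.

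Of the genes most like Mgll over the 6 treated minus untreated differences, Cadm1 had a Pearson r of 0.994, Dock8 of 0.991 and Lrtm1 of 0.983. The search covered 467 genes above background in all arrays that differed at least 1.5-fold at some time, and an r over 6 points picked as the highest of so many describes these arrays only. Cadm1 was lower by 0.56 and 0.61 with CM at 8 and 24 h, and by 0.3 with LIF at 24 h, each a smaller difference than that of Mgll. Among the fatty acid genes themselves, the differences of Mgll ran opposite to those of Lpl (r of -0.86) and Angptl4 (-0.79) and along with those of Pdk4 (0.85). These were picked as the largest in size of its r values with the other members, again over 6 points that share their arrays. Some of the Lpl values in the LIF experiment lay in the background range.

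The first of the genes of oxidation, Cpt1b, which makes the muscle form of the enzyme that commits fatty acids to mitochondria, had untreated levels of 5.8, 5.8 and 5.5 and LIF-treated levels of 5.6, 5.4 and 5.3. In the CM experiment they were 6.84, 6.84 and 6.10 untreated and 6.80, 6.81 and 5.90 treated. Cpt1b was lower in the treated array at all 6 points, by 0.2 to 0.4 with LIF and by 0.03 to 0.20 with CM. With CM at 4 and 8 h it hardly differed, and 37.2% and 41.1% of all genes were as low or lower. Its averaged responses of -0.27 ± 0.08 (SE) and -0.09 ± 0.08 did not pass in limma, with adjusted p of 0.435 and 0.889.

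Pdk4, the kinase that turns off pyruvate dehydrogenase in fasting muscle, had untreated levels of 7.1, 7.6 and 7.4 and LIF-treated levels of 7.5, 7.6 and 7.4. With CM its levels were 9.80, 9.98 and 9.04 in untreated and 9.83, 9.82 and 8.74 in treated myotubes. LIF-treated myotubes held more Pdk4 at 4 h only, by 0.4, and the untreated array there was the lowest of that experiment. With CM the treated array was lower at 8 h by 0.16 and at 24 h by 0.30. The averaged responses, 0.13 ± 0.09 (SE) and -0.14 ± 0.09, had adjusted p of 0.846 and 0.809 in limma. Their difference was -0.28, with an unadjusted 95% interval of -0.55 to -0.00 and an adjusted p of 0.967. The response of Pdk4 at 24 h minus that at 4 h was negative with both agents, -0.4 and -0.33, and missed the threshold in limma (adjusted p of 0.199).

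Upstream sequence is shown for Mgll, which has the greatest difference in size among the members above background, and for Cd36, the gene with the only motif match. RefSeq promoter windows on GRCm38.p6, from 250 bases before to 50 bases after a transcript start, matched 4 of the 9 measured genes (Cd36, Mgll, Pdk4 and Pnpla2, 5 windows). They were searched on both strands for the nuclear receptor hexamer AGGTCA, for its direct repeat with 1 base between (DR1, the element bound by PPAR with RXR, which contains the hexamer), and for TTCNNNGAA, the palindrome bound by STAT factors. These letters occur in 16.3%, 0.0396% and 8.3% of all 32851 windows. The match in Cd36 is a hexamer on the opposite strand, at bases 23 to 28 of its window and shown in capitals. The other windows held none of the 3 motifs, which says only that these letters are not there. The 250 bases before the start are printed 5′ to 3′ on the gene's strand. For Mgll, which has 2 windows, they are those of the first, at chr6:88724162-88724411 on the plus strand. For Cd36 they lie at chr5:17835897-17836146 on the minus strand.
Mgll: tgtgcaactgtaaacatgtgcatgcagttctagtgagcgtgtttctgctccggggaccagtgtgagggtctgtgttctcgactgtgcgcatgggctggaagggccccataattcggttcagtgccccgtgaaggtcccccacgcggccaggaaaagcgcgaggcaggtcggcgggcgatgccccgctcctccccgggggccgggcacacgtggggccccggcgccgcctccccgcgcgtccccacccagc
Cd36: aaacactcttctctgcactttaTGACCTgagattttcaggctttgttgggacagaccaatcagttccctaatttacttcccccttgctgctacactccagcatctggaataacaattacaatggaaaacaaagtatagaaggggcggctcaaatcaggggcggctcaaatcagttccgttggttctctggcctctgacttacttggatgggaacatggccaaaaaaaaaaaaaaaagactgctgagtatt

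Around these genes, 7 lists of the same pathways were counted, and none of their measured genes passed the threshold in any of the 4 comparisons. The lists held 19 genes of fatty acid transport and activation, 22 of lipid droplets and lipolysis, 22 of mitochondrial and 10 of peroxisomal oxidation, 9 of the pyruvate dehydrogenase switch, 18 regulators and 16 PPAR targets, the last sharing genes with the others. Their median averaged responses lay between -0.03 and 0.05 for LIF and between -0.04 and 0.04 for CM, against a median of 0 over all genes at each time. At an unadjusted limma p under 0.05 the lists held from 1 to 5 genes each for LIF and from 0 to 3 for CM, beside 6.82% and 7.48% of all genes. For LIF only the droplet list, with 1 of 22, lay below that share. The highest count was 5 of the 22 mitochondrial genes, and none of the 5 passed after adjustment (smallest adjusted p of 0.302). Regulators had 3 of 18 for LIF, and peroxisomal genes 2 of 10. For CM, 3 of 16 PPAR targets, 2 of 19 transport genes and 2 of 22 droplet genes were above the share of all genes, and the other lists were below it. The lists are small, and no test of a list was run.

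In the mitochondrial list Cpt1a, the form of carnitine palmitoyltransferase typical of liver, was higher in the treated array at every point. It differed by 0.2, 0.3 and 0.6 with LIF and by 0.14, 0.58 and 0.78 with CM. The muscle form Cpt1b was lower with LIF at each time and hardly differed with CM at 4 and 8 h. The averaged responses of Cpt1a were 0.37 and 0.50, with limma adjusted p of 0.482 and 0.152, and its response at 24 h minus 4 h was 0.52 with an adjusted p of 0.0721. Cpt2 and Slc25a20, which complete the carnitine shuttle, had averaged responses between -0.04 and 0.17, and the brain form Cpt1c -0.10 and 0.05.

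In the droplet list G0s2, an inhibitor of the lipase made by Pnpla2, was lower in the treated array at every point, by 0.2, 0.3 and 0.5 with LIF and by 0.08, 0.25 and 0.35 with CM. Its averaged responses of -0.33 and -0.23 had adjusted p of 0.254 and 0.413 in limma. Lipe (hormone-sensitive lipase), Abhd5 (the activator of ATGL) and Plin1 averaged from -0.10 to 0.10. In the pyruvate dehydrogenase list Pdk1 was higher with LIF by 0.4, 0.3 and 0.4, an averaged 0.37 with an adjusted p of 0.152, and averaged 0.11 with CM. Pdk2, Pdk3 and the phosphatase gene Pdp1 averaged between -0.09 and 0.07.

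Among the transporters, Slc27a1 averaged -0.17 with LIF and 0.12 with CM, and Slc27a3, Slc27a4 and Slc27a6 lay between -0.10 and 0.03. The peroxisomal genes Acox3, Ehhadh and Hsd17b4 lay between -0.07 and 0.13. The receptors Ppara, Ppard and Pparg and their partner Rxra averaged from -0.13 to 0.13. Among the PPAR targets, Plin2, Hilpda, Ucp2 and Ucp3 lay between -0.12 and 0.14. Slc27a6, Ehhadh and Ucp3 lay in the background range in every array, and Ppara in every array of the LIF experiment. Their values there bear no reading of a change or of its absence.

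**Figure D4:**
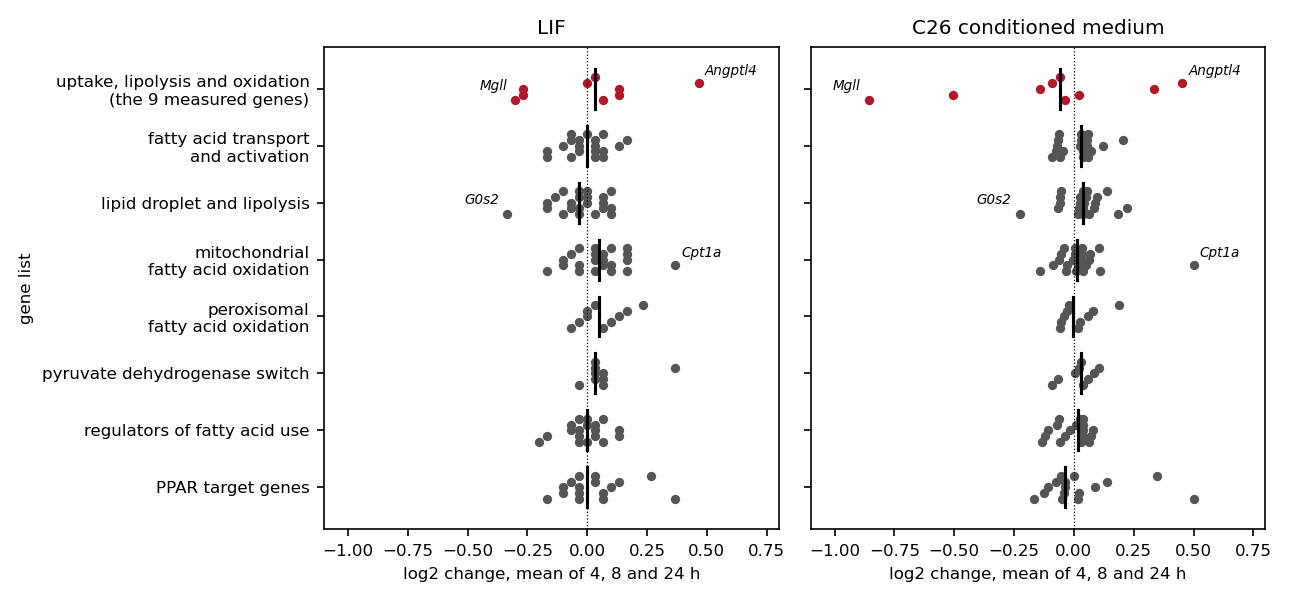
Log2 response averaged over 4, 8 and 24 h (x axis) to LIF and to C26 conditioned medium for each gene (points) of the fatty acid genes, in red, and of 7 related lists, in grey, with a bar at each list's median. The medians lie between -0.06 and 0.05, and Mgll and Angptl4 lie outside the range of most grey points.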

How the data were processed

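Gene expression was measured on 12 arrays of pooled RNA, grouped by their titles into 2 experiments, 2 arms and 3 times. The deposited table holds log2 values that the authors made with RMA, per the submitters' processing notes. No source used here names the RMA version, the probe set or a genome build. LIF values carry 1 decimal and CM values 2, as deposited, so LIF differences move in steps of 0.1. A signed fold change per gene and time, a score that the authors deposited with a minus sign where the treated array is lower, served only as an alternative, and 12 columns of per-array values beside it were not used. Symbols were updated through Entrez identifiers with a RefSeq gene table (GRCm38.p6): 20819 matched, which changed 1943 symbols, and 15 genes lack one.

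No filter or further scaling was applied. In limma 3.58.1 under R 4.3.3 (eBayes with trend) all 12 arrays were fitted with each untreated and treated pair as a block and an effect per agent. The comparison of 24 h with 4 h came from a second fit, in which both agents share an effect of time on the response. Adjustment was by Benjamini-Hochberg over 21187 genes. Both fits had been tested on simulated data. With 1 array per arm and time, the number of arrays limits the precision. Members, lists, tests and alternatives were chosen with earlier results of these data known. Named genes are all members, the first 4 measured genes of each list in its written order, every listed gene that passed, and the 3 genes most like each member that differed at least 2-fold. Those for Fabp5, which lay in the background range, are not named, and 1 listed gene is not reported here. Alternatives were filters on dim genes (25% and 50%), eBayes without a trend or robust, quantile normalization, centring, a threshold of 0.10, folds of 1.5 and 3, the authors' fold changes, coarser rounding, each time left out, 6 arrays of an agent, and no pair block.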

Additional observations from a re-analysis of the deposited data

Results flagged for a closer look

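The response of Mgll differed between times: treated minus untreated was lower at 24 h than at 4 h by a mean log2 difference of -0.965 over both agents (-0.7 with LIF and -1.23 with CM, limma adjusted p of 0.0316). The response of Angptl4 differed between the same times in the other direction, by 0.62 (0.5 with LIF and 0.74 with CM, adjusted p of 0.0181). Each time and arm has a single array, so the agents stand in for repeats, and the p values measure how alike the agents were. Both calls were lost without a variance trend, with quantile normalization, with CM values rounded to 1 decimal and without the 8 h arrays. A separate handling of the 24 h arrays cannot be told apart from time. The part of the unfused cell markers called in the same comparison was not tested.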

How the results depend on the processing

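Each treated and untreated pair of an experiment and time was a block in the main fits, and the fit without that pairing is among the alternatives. The labels carry no replicate numbers. No member was called for the averaged responses or their difference under any alternative. For LIF, 0 genes in all were called, and 8 without the dimmest 25% of genes, 12 with robust eBayes, 12 with quantile normalization and 28 at a threshold of 0.10. For CM the count of 46 became 25 without the dimmer 50% of genes, 0 without a trend, 25 with robust eBayes, 76 at 0.10, 13 with the authors' fold changes, 0 with CM values rounded to 1 decimal, 1 without 4 h, 0 without 8 h, 0 without 24 h, 0 with the 6 arrays of the agent and 0 without the pair block. For 24 h minus 4 h the count of 85 became 0 without a trend, 136 robust, 26 quantile, 138 centred, 165 at 0.10, 0 with rounding and 3 without 8 h, the last chosen after seeing the data. There the 2 called members became 0 without a trend, with quantile normalization, with rounding and without 8 h. The cause of these shifts was not tested, apart from fewer arrays where times were left out. Members past a fold limit numbered 2 with LIF at 24 h at 1.5-fold (0 at 2-fold). With CM at 8 h they were 0 at 3-fold (2 at 2-fold), and with CM at 24 h 2 at 1.5-fold and 0 at 3-fold (1 at 2-fold). The shares of all genes past 1.5-fold and 3-fold are not given, so the counts at these limits bear no reading about the members. Signs turned for small values only: LIF Fabp5 to -0.05 without 24 h, CM Cd36 to 0.035 and Fabp4 to -0.12 without 8 h. In CM minus LIF, Fabp4 turned to 0.015 without 4 h and 0.065 without 24 h, and Angptl4 to 0.0081 with quantile normalization, 0.020 with the authors' fold changes and 0.05 without 4 h. A low signal leaves Fabp4 and Fabp5, and Lpl in the LIF experiment, without a reliable size.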

Other observations

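Untreated myotubes of the experiments differed in the level of some fatty acid genes. Relative to the array median, untreated Pdk4 had log2 levels of 1.1, 1.6 and 1.9 at 4, 8 and 24 h in the LIF experiment and of 3.09, 3.24 and 2.90 in the CM experiment. Untreated Cd36 stood at 1.7, 1.2 and 1.8 in the former and at 2.22, 2.26 and 2.21 in the latter, so both genes were higher in the CM experiment at each time. Angptl4 ran the other way, with 3.4, 2.9 and 2.2 against 2.59, 2.04 and 1.74. The experiments differ in rounding and in overall scale, so a difference in culture and a difference in array scale cannot be told apart.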
